A study of Mus musculus with 40 samples.

Results

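Hox genes of clusters A to D were followed through the developing larynx, trachea and esophagus of the mouse. The set was defined by name and cluster membership, not by any measured value, and holds 38 of the 53647 genes in the count tables: 10 each of clusters A and B and 9 each of clusters C and D. RNA was sequenced in bulk from wild type FVB/N mice that received no treatment. Short tissue pieces were pooled over 10 embryos, or over 20 at E15.5, and the esophagus and trachea were taken from just behind the larynx. Each tissue was sampled at the 5 embryonic ages E10.5, E11.5, E13.5, then E15.5 and finally E18.5. The larynx was also sampled at P0 and in adult mice, for which the labels give 6 to 8 weeks. The E10.5 piece of the larynx is labelled primitive laryngopharynx. Poly-A RNA libraries were sequenced on 2 Illumina platforms, but the sources used here do not say which library ran on which. There were 40 libraries in 20 groups of 2, which the methods call biological replicates. The sources used here do not say whether partners came from separate pools of embryos. In contrasts over these groups, p-values measure the spread within the pairs. In the spline fits given below, the spread also holds differences between kinds of library and, across embryonic libraries, between tissues. In the additive fit it also holds differences between tissues in their change with age.

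Hox genes encode homeodomain transcription factors that give cells of the neural tube, somites, neural crest and gut mesenchyme their position along the body axis. The genes stand in each cluster in the order in which they are switched on and in which their domains begin from head to tail, so that low group numbers mark the hindbrain and pharynx and high numbers the caudal trunk. Genes with the same number in different clusters are paralogs. In the foregut, Hox genes of the middle groups pattern the mesenchyme of the airway, and Hoxa5 is required for a normal trachea and lung.

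On the mouse assembly GRCm39 cluster A lies on the minus strand of chr6:52138599-52237822, cluster B on the plus strand of chr11:96085106-96259082, cluster C on the plus strand of chr15:102829538-102945278 and cluster D on the plus strand of chr2:74498654-74595486. The 250 bases before the RefSeq start of 4 genes are shown as examples: Hoxa5 as the airway gene, Hoxb4 as a gene of the neck, Hoxd8 as the highest Hox gene per kilobase of exon in the E18.5 larynx and esophagus, and Hoxd13 as the end of cluster D. Hoxb4 and Hoxd13 were not called in the contrasts between tissues given below. RefSeq gives the sequences on GRCm38.p6, and each was found once in GRCm39. They lie at chr6:52181568-52181817 on the minus strand for Hoxa5, chr11:96208843-96209092 on the plus strand for Hoxb4, chr2:74534709-74534958 on the plus strand for Hoxd8 and chr2:74498319-74498568 on the plus strand for Hoxd13. Capitals mark matches to the motifs named after the sequences.
Hoxa5: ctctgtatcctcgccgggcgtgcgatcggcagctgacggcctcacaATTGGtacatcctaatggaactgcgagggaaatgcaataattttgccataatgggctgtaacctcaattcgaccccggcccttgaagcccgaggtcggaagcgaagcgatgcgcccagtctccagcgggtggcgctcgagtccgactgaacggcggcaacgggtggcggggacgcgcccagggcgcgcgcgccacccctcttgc
Hoxb4: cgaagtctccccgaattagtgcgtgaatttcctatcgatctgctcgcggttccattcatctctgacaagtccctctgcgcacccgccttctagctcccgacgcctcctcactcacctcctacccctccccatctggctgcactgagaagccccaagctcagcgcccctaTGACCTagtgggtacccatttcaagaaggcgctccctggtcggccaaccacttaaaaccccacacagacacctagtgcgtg
Hoxd8: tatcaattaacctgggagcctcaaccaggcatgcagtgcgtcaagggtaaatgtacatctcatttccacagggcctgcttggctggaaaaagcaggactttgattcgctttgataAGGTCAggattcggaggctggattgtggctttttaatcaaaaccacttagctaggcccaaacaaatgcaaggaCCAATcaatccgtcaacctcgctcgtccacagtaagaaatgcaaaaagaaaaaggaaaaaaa
Hoxd13: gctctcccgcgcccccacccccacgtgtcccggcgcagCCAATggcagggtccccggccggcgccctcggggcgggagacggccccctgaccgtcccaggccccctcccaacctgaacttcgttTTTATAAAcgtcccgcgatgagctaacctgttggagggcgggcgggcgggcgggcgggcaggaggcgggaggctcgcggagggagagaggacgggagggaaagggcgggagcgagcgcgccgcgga

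These windows were searched on both strands for TTTATG (bound by CDX factors), AGGTCA (bound by retinoic acid receptors), TGATNNAT (bound by Hox with TALE partners), CCAAT (bound by NF-Y) and TATAAA (the TATA box). RefSeq entries were found for 22 of the 38 genes, with 24 start sites in all. CCAAT was found at 14 of the 24 start sites and at 33.9% of 32841 promoters of the same length, and it is the only motif shown for Hoxa5. AGGTCA was found at 6 of 24 and at 14% of all promoters, on the reverse strand 81 to 76 bases before the Hoxb4 start and on the forward strand 135 to 130 bases before the Hoxd8 start. TTTATG was found at 5 of 24 and 10.8% of all, TGATNNAT at 4 of 24 and 7.69% of all, and TATAAA at 4 of 24 and 12.4% of all. Both TATAAA matches before Hoxd13 overlap each other, and 239 of the 250 bases before Hoxd8 lie in exons of the noncoding gene Hoxd3os1. A match is a description of letters and says nothing of binding.

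The libraries fall into 10 labelled by a sequencing index, here called index libraries, and 30 labelled by a short code. Index libraries exist for the larynx at E15.5, P0 and adult (labelled vocal fold, the adult also larynx) and for the trachea and esophagus at E15.5. Expected counts summed to between 3286403 (E11.5 larynx 1) and 35831491 per library. Levels are normalized counts, which are rounded expected counts divided by a size factor for the library. Several libraries stand apart from their partner: the summed Hox level differed 8.63-fold between the E10.5 larynx libraries, 4.18-fold between those of the E10.5 trachea, 2.85-fold at E11.5 in the larynx and 2.79-fold at E11.5 in the esophagus. It differed by at most 1.62-fold in the other short-code groups. The 3 libraries E11.5 larynx 2, E15.5 larynx 2 and E15.5 trachea 2 had counts in 685 to 1108 of 1193 olfactory receptor genes, against 80 to 319 in all others. At E10.5, 11 genes of esophageal identity summed to 1113 to 1926 over the 6 libraries and were not higher in the esophagus, while 11 genes of respiratory identity summed to 1788 and 1293 in the trachea and to 702 to 1174 in the others. Heart muscle genes summed to 58501 and 106027 in the E10.5 trachea and to between 185 and 10450.0 in the other libraries of that age. By E18.5 the esophageal genes summed to 114092 and 208895 in the esophagus, 51660 and 118805 in the larynx and 48402 and 22466 in the trachea.

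**Figure D1:**
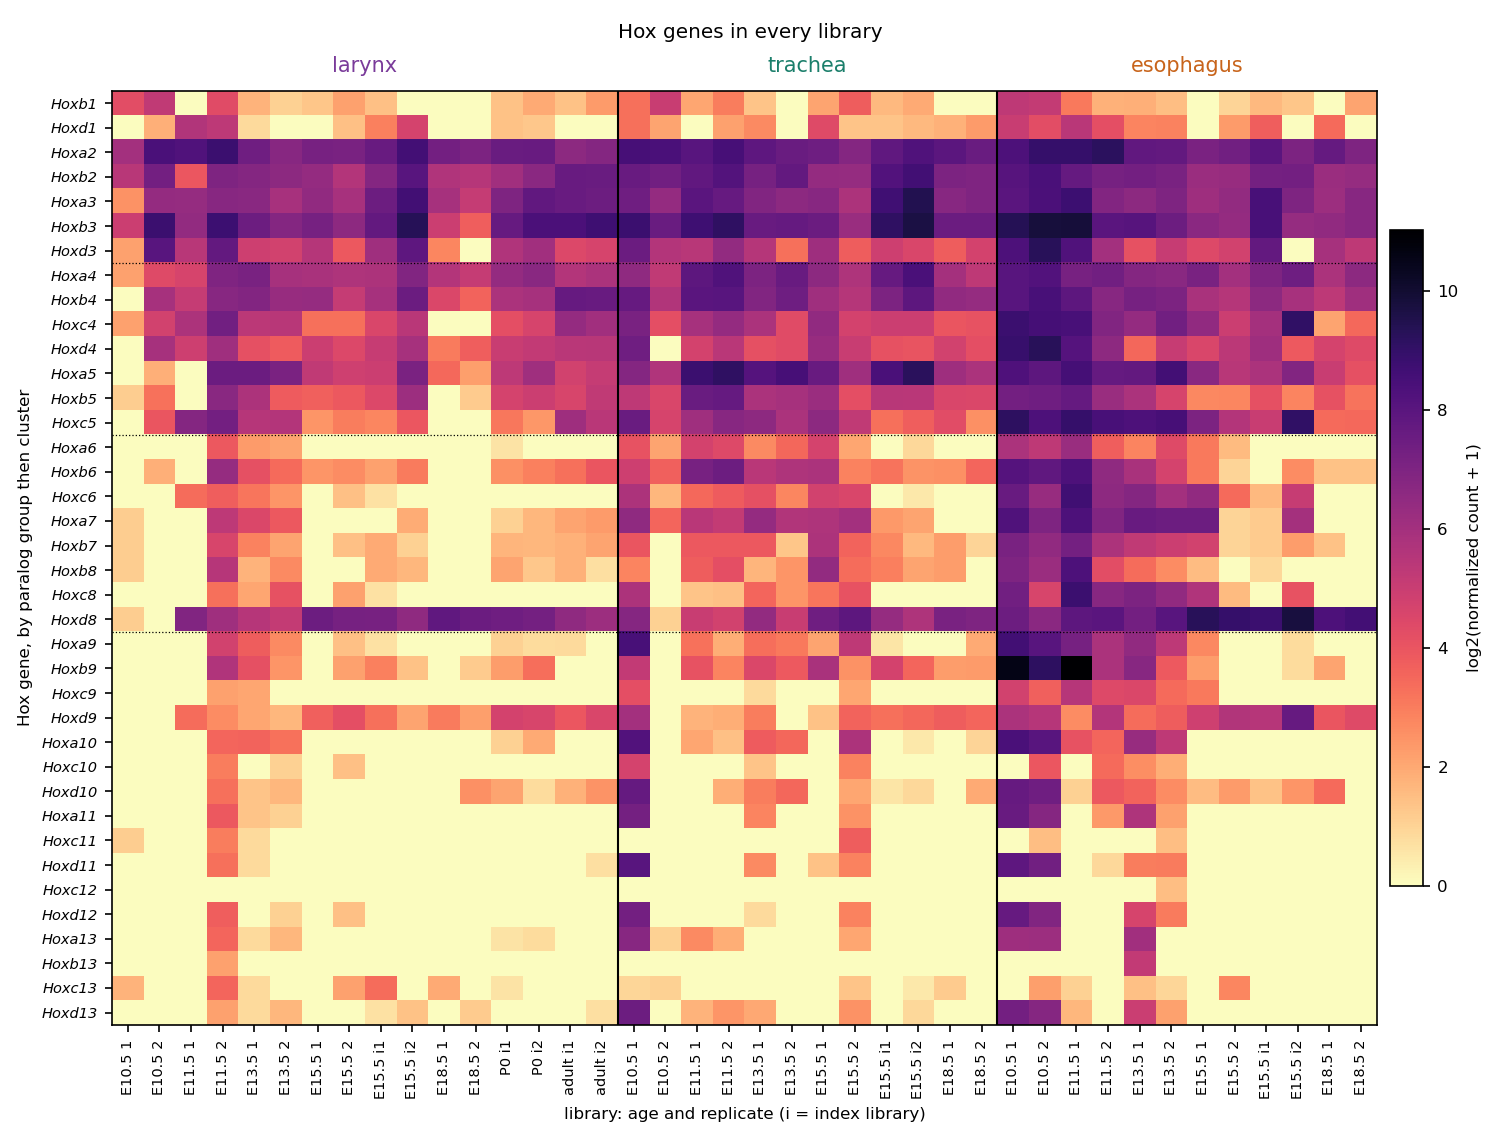
Heat map of log2(normalized count + 1) of the 38 Hox genes (rows, by paralog group then cluster) in the 40 libraries (columns, by tissue and age, index libraries marked i). Hoxa2, Hoxb2, Hoxa3 and Hoxb3 have counts in every library, Hoxd8 is higher in later than in E10.5 libraries of the larynx, and groups 10 to 13 sum to the most in both E10.5 esophagus libraries and E10.5 trachea 1.

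The esophagus held the most Hox RNA at E10.5, and its libraries from E13.5 on held less. The summed level of the 38 genes was 9204 and 7757 at E10.5 in the esophagus, 9082 and 3257 at E11.5, 2952 and 2715 at E13.5 and 1037 and 1096 at E18.5. In the trachea it was 4531 and 1084 at E10.5, 2802 and 3382 at E11.5 and 1152 and 1035 at E18.5. The larynx had 177 and 1529 at E10.5, 962 and 2746 at E11.5 and 621 and 474 at E18.5. The E10.5 larynx libraries lay on both sides of the E18.5 values, E10.5 trachea 2 lay between the E18.5 trachea libraries, and the larynx libraries of E18.5 lay below all others of that age. In bulk tissue, fewer cells of a type and less RNA per cell cannot be told apart.

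The make-up of the sum differed between tissues too. Weighted by the level per kilobase of exon, the mean paralog number was 2.59 and 2.69 in the E10.5 larynx, 6.58 and 5.66 in the E10.5 esophagus, and 6.79 and 2.93 in the E10.5 trachea. At E13.5 it was 4.22 and 4.31 in the larynx, 4.47 and 4.25 in the trachea and 5.87 and 5.11 in the esophagus, so that the esophagus held the higher values and the other tissues overlapped. At E18.5 it was 4.81 and 4.88 in the larynx, 3.93 and 3.96 in the trachea and 4.80 and 5.06 in the esophagus. Here the trachea was lowest and the larynx overlapped the esophagus, with Hoxd8 making up 36.4 and 38.5% of the summed counts in the larynx, 30.6 and 35.1% in the esophagus and no more than 12.3% in the trachea.

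**Figure D2:**
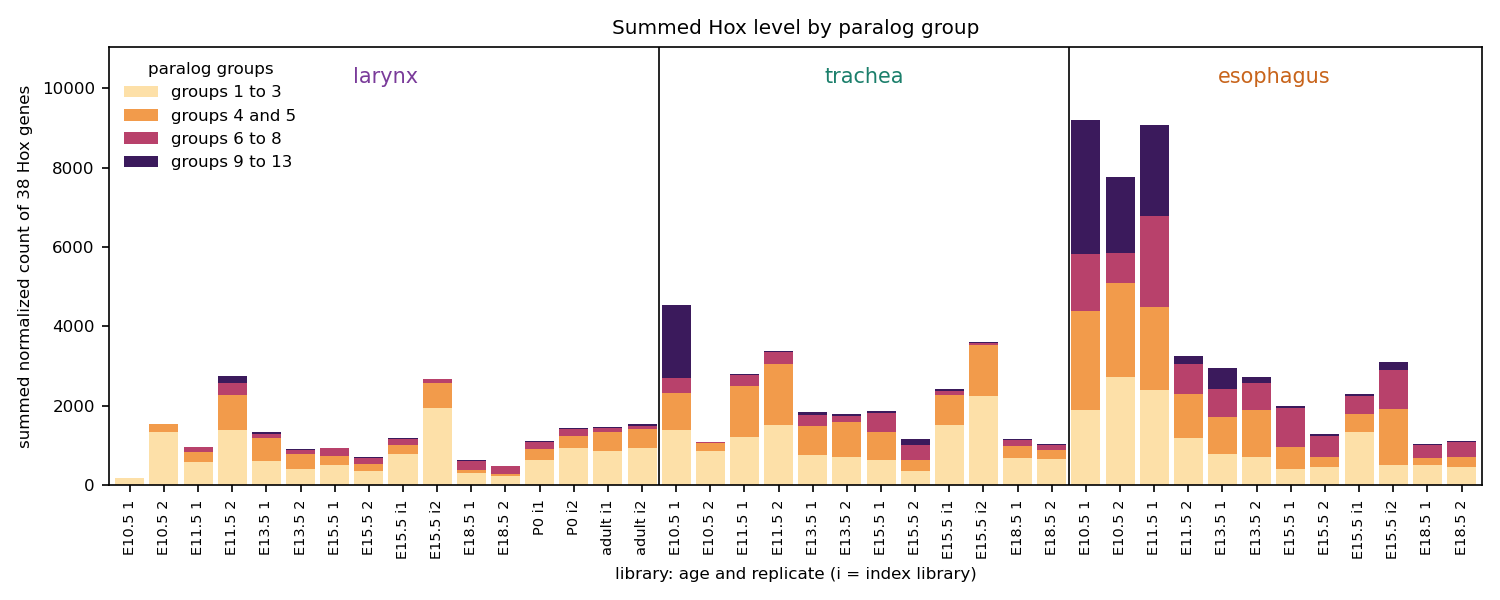
Summed normalized count of the 38 Hox genes in each library, stacked by paralog groups 1 to 3, 4 and 5, 6 to 8 and 9 to 13; each bar is 1 library. Bars reach 9204 in E10.5 esophagus 1 and 177 in E10.5 larynx 1, and groups 9 to 13 form a visible share in both E10.5 esophagus libraries, E10.5 trachea 1 and E11.5 esophagus 1.

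Groups 1 to 3, the genes of the hindbrain and pharyngeal arches, were present in every tissue. Hoxa2, which gives the second pharyngeal arch its identity, had 62.6 and 347 normalized counts in the E10.5 larynx, 367 and 343 in the trachea and 318 and 484 in the esophagus. It was still at 154.6 and 129 in the larynx, 247 and 189 in the trachea and 206 and 128 in the esophagus at E18.5. At E18.5 the larynx lay below the trachea, and both overlapped the esophagus. Hoxa2 had a count in all 40 libraries. Hoxb1, which marks a segment of the early hindbrain, was at 17.7 and 36.4 in the larynx, 8.76 and 31.1 in the trachea and 37.2 and 34.6 in the esophagus at E10.5. In later libraries it reached at most 19.4, and it was at 0 in both larynx and both trachea libraries of E18.5. Its paralog Hoxd1 reached at most 47.6, in E11.5 larynx 1.

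Hoxb3 and Hoxd3, paralogs of the thymus and parathyroid gene Hoxa3, differed widely between partner libraries at E10.5. Hoxb3 was at 29.5 and 450.1 in the E10.5 larynx, 453 and 188 in the trachea and 655 and 889 in the esophagus. Hoxd3 was at 3.54 and 262, 185 and 47.1, and 318 and 618 in the same tissues. E10.5 larynx 1, the lower library in both cases, also had 2529.5 summed counts of 8 forebrain and midbrain markers against 557 in its partner, while 18 or 19 of 19 hindbrain and spinal cord markers had counts in both. The part of that composition in the Hox levels was not tested. Of the exon bases of Hoxb3, 51.5% are shared with the antisense gene Hoxb3os, and 32.5% of those of Hoxd3 with the read-through gene Gm28230 (the sources used here do not say whether reads were counted by strand). The other genes of these groups, Hoxb2 and Hoxa3, ranged from 14.3 to 393 and from 4.72 to 708, and at E10.5 Hoxa3 was at 4.72 and 82.2 in the larynx, 168 and 82.5 in the trachea and 255 and 336 in the esophagus.

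Groups 4 and 5 held most of the genes called lower in the larynx by the tests between tissues given below. Called or not, 35 of 37 Hox genes had negative log2 fold changes against the esophagus and 33 against the trachea, where the medians over all genes were 0.09 and 0.05. Only 11 of the 37 had a count in every group of each contrast, and for the rest the fitted value depends on the prior count. These genes were measured in the same libraries, so their directions are not separate observations. Hoxa5, the airway gene, was at 0 and 2.60 in the larynx at E10.5, 0 and 179.9 at E11.5, 185 and 134 at E13.5, 37.0 and 28.1 at E15.5 and 10.2 and 3.72 at E18.5. In the trachea it was at 111 and 49.3, 449 and 553, 275 and 365, 196 and 66.5, and 68.5 and 54.5 at these ages. In the esophagus it was at 317 and 240.4, 374 and 203, 214 and 389, 103 and 42.6, and 31.1 and 16.6. In these short-code libraries the larynx lay below both other tissues at every age with no overlap, and the trachea was the highest at E11.5 and E18.5. Index libraries of E15.5 had 341 and 606 in the trachea against 29.3 and 134 in the larynx and 55.0 and 115 in the esophagus, so that larynx and esophagus overlapped. Per kilobase of exon, Hoxa5 was the highest Hox gene of the E11.5 and E13.5 trachea, at 239 and 294 and at 147 and 194.

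Hoxb5, which acts in the enteric nervous system and in lung branching, was at 188 and 206 in the E11.5 trachea, 208 and 75.0 in the esophagus, and 0 and 104 in the larynx. At E18.5 it was at 22.4 and 21.4 in the trachea, 16.4 and 8.29 in the esophagus and 0 and 1.24 in the larynx. The higher of the E11.5 larynx libraries, E11.5 larynx 2, had counts in 37 of the 38 genes and in 1108 olfactory receptor genes, against 14 Hox genes in its partner, which was the shallowest library. Hoxa4 and Hoxb4 set neck identity. At E10.5 Hoxa4 was at 3.54 and 19.9 in the larynx, 90.2 and 36.4 in the trachea and 263 and 290.5 in the esophagus. Hoxb4 followed the same order at E10.5, with 0 and 59.7, 201 and 48.2, and 261 and 353, where the trachea and larynx overlapped.

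Hoxc4 and Hoxc5, neighbours in cluster C, were highest in the esophagus at E10.5. Hoxc5 was at 571 and 324 there at E10.5, 497 and 352 at E11.5, 319 and 364 at E13.5, 133 and 46.5 at E15.5 and 9.83 and 9.95 at E18.5. In the larynx it was at 0 and 14.7, 114 and 155.2, 43.6 and 46.5, 4.44 and 7.03, and 0 and 0. In the trachea it ranged from 4.87 to 186 over the short-code libraries. The larynx was below the esophagus at every age with no overlap in short-code libraries. Hoxc4 was at 451 and 379 in the esophagus at E10.5 against 3.54 and 25.97 in the larynx, and both genes had 0 counts in the E18.5 larynx. Index library 2 of the E15.5 esophagus stood apart with 532 for Hoxc4 and 535 for Hoxc5 against 61.2 and 31.4 in its partner. Hoxd4, which shares 38.9% of its exon bases with Gm28230 and 13.1% with Hoxd3, was at 480.2 and 628 in the E10.5 esophagus, 168 and 0 in the trachea and 0 and 58.9 in the larynx.

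Groups 6 to 8, the genes of the lower neck and upper trunk, were low in the larynx, apart from Hoxd8 and the library E11.5 larynx 2. Hoxb6 was at 144 and 178 in the E11.5 trachea, 323 and 89.9 in the esophagus and 0 and 81.1 in the larynx. Hoxc6 and Hoxc8, which pattern spinal motor neurons of the forelimb, reached 404 and 454 in E11.5 esophagus 1 and at most 12.3 and 16.2 in the larynx. Hoxa7 was at 306 and 127 in the E10.5 esophagus and 196 and 175 at E13.5, and at 0 in every E18.5 library of the 3 tissues. Over these groups Hoxa6 reached 75.1, Hoxb7 154 and Hoxb8 326, each in E11.5 esophagus 1.

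Hoxd8 had its highest levels in late embryonic libraries. In the esophagus it was at 178 and 101 at E10.5, 241 and 251 at E11.5, 158 and 263 at E13.5, 623 and 494 at E15.5 and 318 and 385 at E18.5. In the larynx it was at 1.18 and 0, 119 and 67.0, 43.6 and 34.6, 178 and 149, and 226 and 182. In the trachea it was at 108 and 1.07, 31.4 and 26.2, 85.2 and 31.0, 167 and 238, and 138 and 128. The esophagus was above the larynx and, apart from E10.5, where E10.5 trachea 1 lay between the esophagus libraries, above the trachea at every age. In the larynx it stayed at 168 and 153 at P0 and 91.7 and 72.3 in adults. The noncoding gene Hoxd3os1 shares 15.0% of the exon bases of Hoxd8 on the opposite strand.

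**Figure D3:**
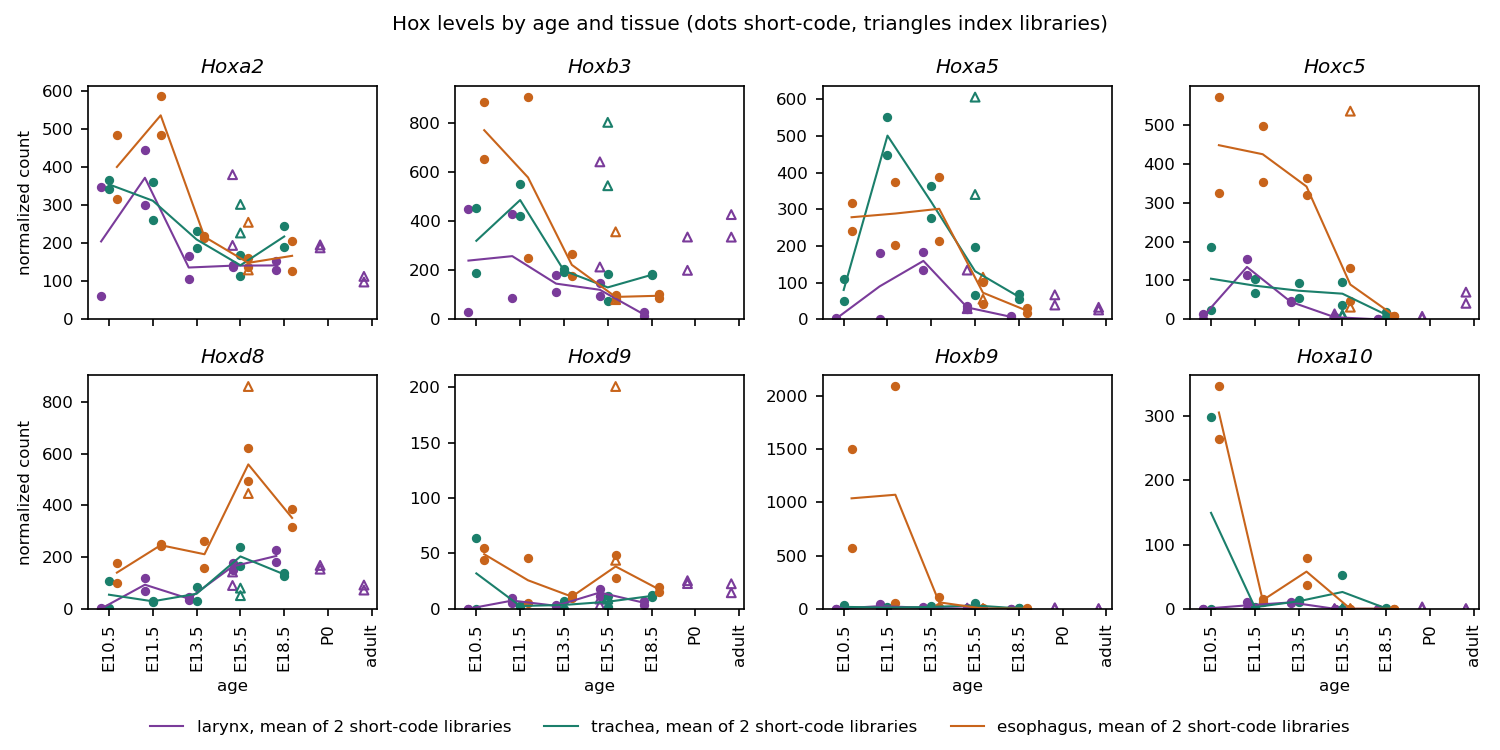
Normalized counts (vertical axes) of 8 Hox genes by age (horizontal axes) in the larynx, trachea and esophagus; dots are short-code libraries, triangles index libraries, and lines join the means of 2 short-code libraries. In short-code libraries Hoxa5 peaks in the trachea at E11.5, Hoxc5 in the esophagus at E10.5, and Hoxd8 in the esophagus at E15.5, while Hoxb9 and Hoxa10 reach their highest values in the esophagus at E11.5 and E10.5. The highest Hoxa5 value of all, 606, is in an index library of the E15.5 trachea.

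Groups 9 to 13, which in the trunk mark levels behind the foregut and in limb buds the forearm and hand, were high in particular libraries, mostly of the early esophagus, and differed widely between partners in the E10.5 trachea and E11.5 esophagus. They made up 36.8 and 24.5% of the summed counts in the E10.5 esophagus libraries and 40.7% in E10.5 trachea 1, but 0.198% in E10.5 trachea 2 and 2.00 and 0% in the E10.5 larynx. At E10.5 Hoxa10 had 346 and 265 normalized counts in the esophagus, 299 and 0 in the trachea, but 0 in each library of the larynx. Hoxd13, the digit gene, was at 159 and 109, 176 and 0, and 0 and 0. Hoxd11, which shapes the forearm and kidney, was at 234 and 160.3, 260.1 and 0, and 0 and 0. Those 3 libraries were high in clusters A and D, whereas Hoxb13 was at 0 and Hoxc10 to Hoxc13 were at 24.5 or below in all 6 libraries of E10.5. Hoxa9, Hoxd10, Hoxa11, Hoxd12 and Hoxa13 followed, with 394 to 69.6 in E10.5 esophagus 1 and 349 to 105 in E10.5 trachea 1.

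Hoxb9 had another pattern. It was at 1504 and 571 in the E10.5 esophagus and 2088 and 54.4 at E11.5, but at 35.9 and 0 in the E10.5 trachea. E11.5 esophagus 1 had 20.1 summed counts of groups 10 to 13, and E13.5 esophagus 1 had 65.4 of Hoxa13, 35.3 of Hoxb13 and 30.1 of Hoxd13 against 0, 0 and 3.56 in its partner. E15.5 trachea 2, 1 of the 3 libraries with many olfactory receptor genes, held 13.8% in groups 9 to 13, with 52.3 of Hoxa10 against 0 in its partner. Hoxd9 stayed at a low level throughout, from 0 to 63.9 in short-code libraries, with 201 in index library 2 of the E15.5 esophagus. Hoxc9 reached 44.4, and Hoxc10, Hoxc11 and Hoxc13 stayed at or below 24.5, 12.7 and 10.6 in all libraries.

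Other tissue markers moved with these libraries. The 10 markers of the limb bud and posterior trunk had 10, 10 and 9 members with a count in both E10.5 esophagus libraries and E10.5 trachea 1, summing to 2302, 1907 and 2240, against 8 members and 1132 in E10.5 trachea 2 and 7 and 8 members with 978 and 1221 in the E10.5 larynx. Tbx15 was at 757, 564 and 672 against 104 in E10.5 trachea 2 and 168 and 205 in the E10.5 larynx, and Hoxa11os, antisense to Hoxa11 over 43.6% of its exon bases, at 108, 136 and 145 against at most 1.18. The posterior gene Cdx2 was at 5.88 and 10.9 in the esophagus libraries and at 0 in the other 4. Hindbrain and spinal cord markers, 18 or 19 of 19 with a count in each E10.5 library, summed to 2758 and 3301 in the esophagus, 3526 and 3161 in the larynx and 1269 and 1099 in the trachea. At E11.5 they summed to 1469 in esophagus 1 against 200.4 in esophagus 2, and to 1809 in larynx 2 against 66.7 in larynx 1. Mnx1 was at 0 in E10.5 larynx 2 and E10.5 trachea 2. The part of these cells in the Hox levels was not tested.

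The larynx held less RNA of several Hox genes than the esophagus did: 5 of 37 tested were lower at a Benjamini-Hochberg adjusted p under 0.05 (edgeR quasi-likelihood test over all 36495 genes) and 0 higher, whereas 0.0575% of all genes were lower. The contrast takes the log2 means of the short-code libraries over the 5 embryonic ages. It compares the level of each gene between organs and is not a test of axial position. The 3 contrasts between tissues share libraries. Hoxd8, the gene with the smallest adjusted p, had a log2 fold change of -2.85 ± 0.39 (SE, adjusted p = 0.00123). Hoxa5 was at -2.57 ± 0.43 (adjusted p = 0.0108) and Hoxa4 at -1.48 ± 0.28 (adjusted p = 0.0309). The E10.5 larynx held only 1 count of Hoxd8 over both libraries, and Hoxa5 was also close to the floor there. The sizes and SEs of these 2 genes therefore lean on a group with almost no counts. Hoxc5 and Hoxc4 passed with adjusted p of 0.0026 and 0.0218. Their fitted log2 fold changes of -4.16 and -3.21 carry no SE because the E18.5 larynx had 0 counts and the value depends on the prior count. All 11 Hox genes with a count in every group were negative, with a median of -1.31 against 0.01 over 20015 such genes, and 10 of the 11 had an unadjusted p under 0.05, against 6.21% of those genes. These calls were lost without E10.5: over the 4 ages from E11.5 edgeR called 0, with Hoxd8 at -1.60, Hoxa5 at -1.35 and Hoxa4 at -0.73. A fit with tissue and age as additive terms also called 0, with 34 of 37 negative beside a median of 0.10 over all genes. Both alternatives were chosen after seeing the data.

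Leaving out a library moved the count of 5 to 2 without E10.5 larynx 1, E15.5 larynx 2 or E18.5 larynx 2. It moved to 3 without E10.5 esophagus 1, E13.5 larynx 2, E15.5 esophagus 1, E15.5 larynx 1, E18.5 esophagus 2 or E18.5 larynx 1. Hoxd8 and Hoxc5 passed in all 40 of these fits. Over 51 alternatives of every kind Hoxa5 missed the threshold in 6, Hoxc4 in 14 and Hoxa4 in 16.

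Between larynx and trachea, the airway genes of group 5 and their neighbour Hoxb6 were lower in the larynx. The test called 3 of 37 lower and 0 higher, against 0.192% of all genes lower. Hoxa5 was at -2.84 ± 0.43 (SE, adjusted p = 0.00245, edgeR) and Hoxb5 at -2.35 ± 0.48 (adjusted p = 0.027). In the larynx Hoxa5 was close to the floor at E10.5 and Hoxb5 at E18.5, so their sizes and SEs lean on groups with almost no counts. Hoxb6 passed at adjusted p = 0.0273 with a fitted -3.23 that depends on the prior count. The 11 genes with a count in every group were all negative, with a median of -1.02 against 0.00 over 20104 genes. Hoxd8, at -1.02 ± 0.41 (adjusted p = 0.661), was not called. Without E10.5 the count was 0, with Hoxa5 at -2.13, and the additive fit called 0 with Hoxa5 at -2.23. Hoxa5 passed without any library in turn, while the count ranged from 1 without E10.5 larynx 1, E10.5 trachea 1, E11.5 trachea 1, E13.5 larynx 2, either short-code E15.5 larynx library, either E18.5 larynx library or E18.5 trachea 2 to 9 without E10.5 larynx 2. It was 5 without E10.5 trachea 2 or E11.5 larynx 2 and 6 without either index library of the esophagus. With the replicate block it was 2. Markers of other cells moved both ways. Of 11 hepatocyte genes 3 were called lower in the larynx against the trachea (median log2 fold change -3.30) and 1 against the esophagus (median -3.28). Of 13 heart muscle genes 2 were lower against the trachea (median -1.93) and 0 against the esophagus (median -0.57). Of 11 genes of respiratory mesenchyme and tracheal identity 2 were lower against the trachea (median -0.89) and 0 against the esophagus (median -0.04). In marker lists with 0 called against the trachea, medians ran from -0.69 (thyroid follicle) to 1.38 (forebrain and midbrain), with 1.04 for hindbrain and spinal cord neurons. The summed hepatocyte level ranged from 287 to 21404 in the short-code larynx, 696 to 40854 in the trachea and 928 to 50040.3 in the esophagus, and its part in the Hox values was not tested.

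Between trachea and esophagus, Hoxd8 alone was lower in the trachea, 1 of 37 against 0.0986% of all genes. Its log2 fold change was -1.83 ± 0.33 (SE, adjusted p = 0.0103, edgeR), and it was also called over the 4 ages from E11.5, at -1.95, but not over the 3 from E13.5, at -1.57, or in the additive fit, at -1.76. It passed without any library in turn, and the count was 3 without E10.5 trachea 1. Of 19 Hox genes with a count in every group 14 were negative, with a median of -0.78 against 0.01 over 20221 genes. Hoxb5, Hoxb6, Hoxa5, Hoxb2 and Hoxb4 were positive, between 0.04 and 0.48, and none passed the test.

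**Figure D4:**
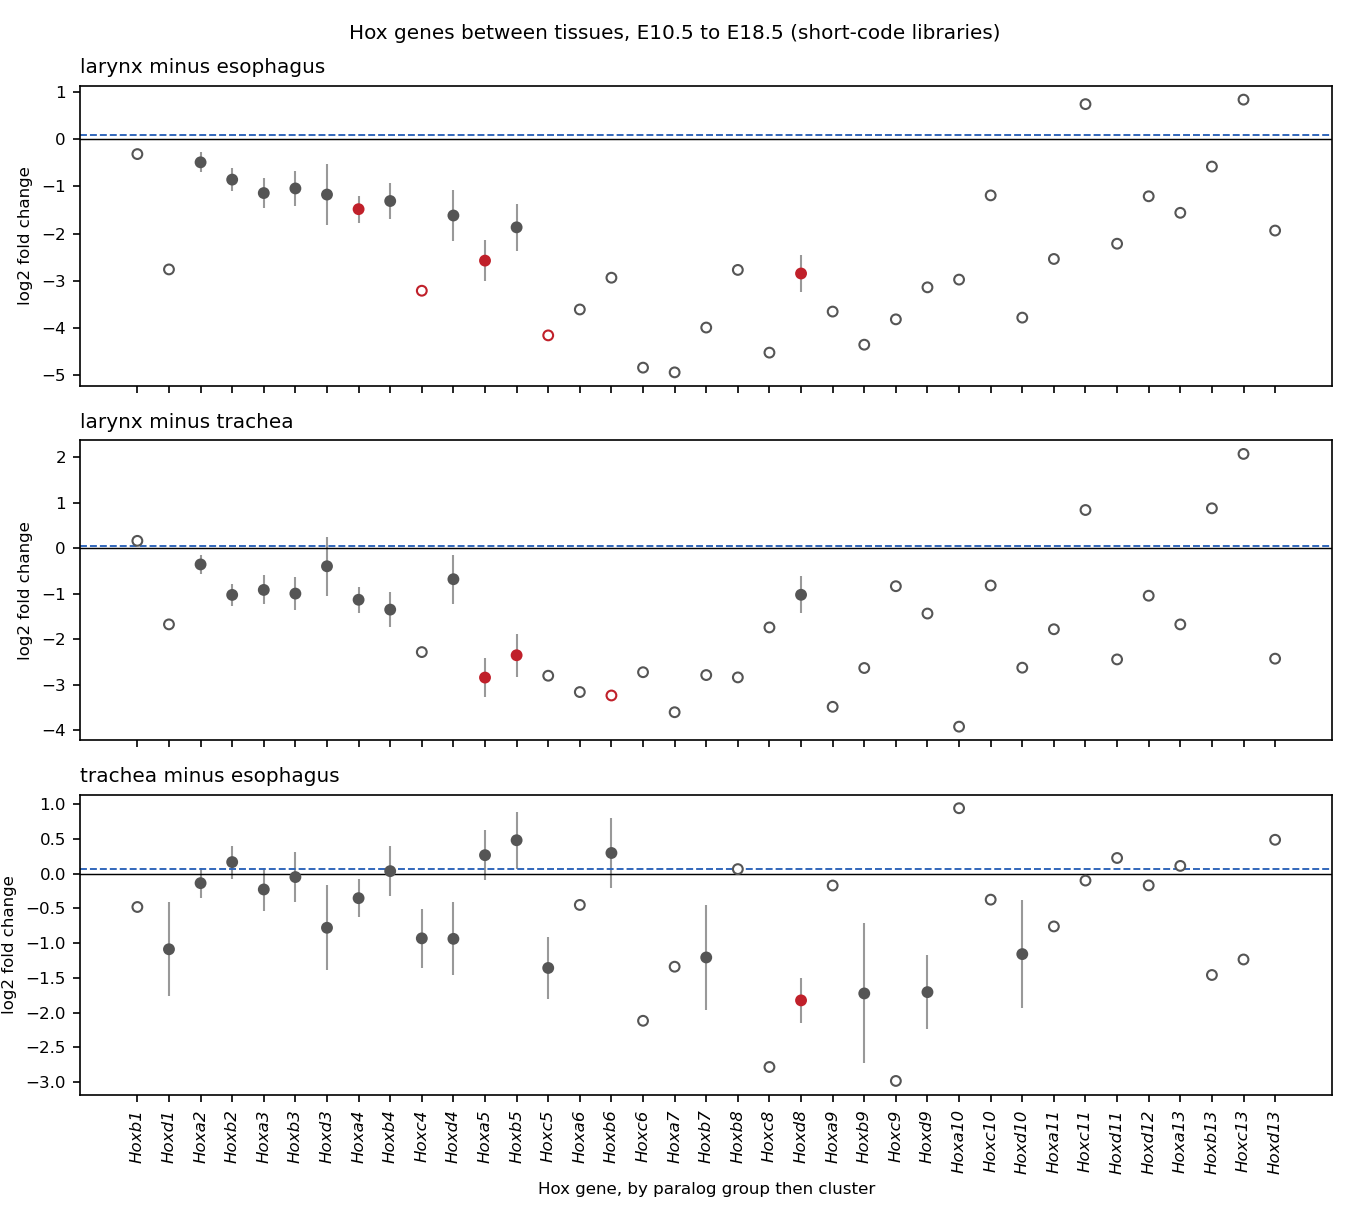
Log2 fold change (vertical axes) of 37 Hox genes between tissues, averaged over E10.5 to E18.5; filled circles have SE bars, open circles mark genes with a group at 0 counts, red marks an adjusted p under 0.05, and the dashed line is the median of all genes. In the larynx contrasts the filled circles are all below 0, with Hoxa5 at -2.57 and -2.84.

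The larynx of the E15.5 index libraries was compared with the mean of trachea and esophagus, in libraries the contrasts over ages did not use. None of the 37 genes was called by edgeR or by DESeq2, where 0.0658% and 1.7% of all genes were called. At an unadjusted p under 0.05 there were 4, against 6.61% of all genes, among them Hoxc5 at -2.43 ± 0.93 (SE) and Hoxa4 at -1.21 ± 0.54. Of the 23 Hox genes with a count in every group only 12 were negative. Their median was -0.31 against -0.07 over 24192 such genes, so the shared direction of the contrasts over ages was not seen here. Without E15.5 esophagus index 1 edgeR called 3. The larynx index libraries differed 2.28-fold in their summed Hox level.

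With age, most Hox genes fell in the esophagus. From E10.5 to E18.5, 26 of 37 genes fell and 0 rose in the esophagus, whereas 9.72% of all genes fell (edgeR). Among genes with counts at both ages, log2 fold changes were -9.20 ± 1.99 for Hoxb9 (SE, adjusted p = 0.00104), -7.15 ± 1.45 for Hoxb6 (adjusted p = 0.000481), -5.95 ± 1.14 for Hoxc4 (adjusted p = 0.000283) and -1.97 ± 0.55 for Hoxb2 (adjusted p = 0.00852). For genes at 0 counts at E18.5 only a bound can be given, against a floor of 3 counts over both libraries: Hoxa9 was at least 132-fold lower, Hoxa10 at least 124-fold, Hoxa7 at least 87.4-fold and Hoxd13 at least 54.2-fold. The 20 genes with counts at both ages had a median of -3.40 against -0.03 over 23161 genes. Not called were Hoxa2, Hoxa3, Hoxd1, Hoxd3, Hoxd8, Hoxd9, Hoxc9 to Hoxc11, Hoxc13 and Hoxb13. From E11.5 the count was 16, and it was 14 without E18.5 esophagus 1 and 10 without E18.5 esophagus 2.

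In the trachea 13 of 37 fell and 0 rose, against 9.15% of all genes falling. Called genes with counts at both ages were Hoxc5 at -3.18 ± 1.05 (SE, adjusted p = 0.0303, edgeR), Hoxa9 at -6.69 ± 1.82 (adjusted p = 0.00856), Hoxa10 at -7.85 ± 2.10 (adjusted p = 0.00989) and Hoxd10 at -5.91 ± 1.76 (adjusted p = 0.0165). Hoxd11 was at least 79.3-fold lower, Hoxd13 at least 53.7-fold and Hoxb1 at least 12.1-fold. The fall of the high-numbered genes rests on 1 library: without E10.5 trachea 1 the count was 3, and Hoxa9, Hoxa10 and Hoxd10 were at 3.91, 2.53 and 3.91. The count was 1 without E18.5 trachea 1 and 2 without E18.5 trachea 2, and 7 from E11.5.

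In the larynx 4 of 37 fell and 1 rose, against 10.1% of all genes falling and 12.9% rising. Hoxb3 was at -3.55 ± 0.93 (SE, adjusted p = 0.00525, edgeR) and Hoxd3 at -5.55 ± 1.80 (adjusted p = 0.0238), and both rest on E10.5 larynx 2, without which they were at -0.52 and -0.35. Hoxb1 was at least 13.4-fold lower and Hoxc4 at least 7.34-fold. Hoxd8 rose from 1 count to 302 counts over both libraries, a ratio of 409 with a 95% counting interval of 73.4 to 16148 (adjusted p = 5.84e-06, edgeR). Over 49 alternatives its log2 fold change ranged from 1.17 to 10.83, and the call was lost in 1. The E11.5 levels of Hoxd8 in the larynx, given above, were already far above those of E10.5. The count of 5 was 8 without E10.5 larynx 1, 3 without E18.5 larynx 1 and 2 without E18.5 larynx 2, and 12 from E11.5.

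Whether the change with age differed between tissues was tested by interaction contrasts that share the larynx libraries. Between larynx and trachea 1 gene was called, Hoxd8, whose rise was larger in the larynx by 7.09 ± 1.46 (SE, log2, adjusted p = 0.0194, edgeR), against 0.345% of all genes. Without E10.5 trachea 1, which held 108 of Hoxd8 against 1.07 in its partner, the difference was 1.55 and not called, and from E11.5 it was -1.03. The call was also lost without E10.5 larynx 1 or 2, E18.5 larynx 1 or either E18.5 trachea library. Between larynx and esophagus edgeR called 0 of 37, against 0.0301% of all genes, and DESeq2 4, against 0.784%. At an unadjusted p under 0.05 there were 6, against 3.88% of all genes, with Hoxd8 at 7.03 ± 1.45 (adjusted p = 0.0915). EdgeR called 1 without E10.5 trachea 1, E10.5 trachea 2, E11.5 larynx 1, E15.5 trachea 1 or either index library of the esophagus.

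**Figure D5:**
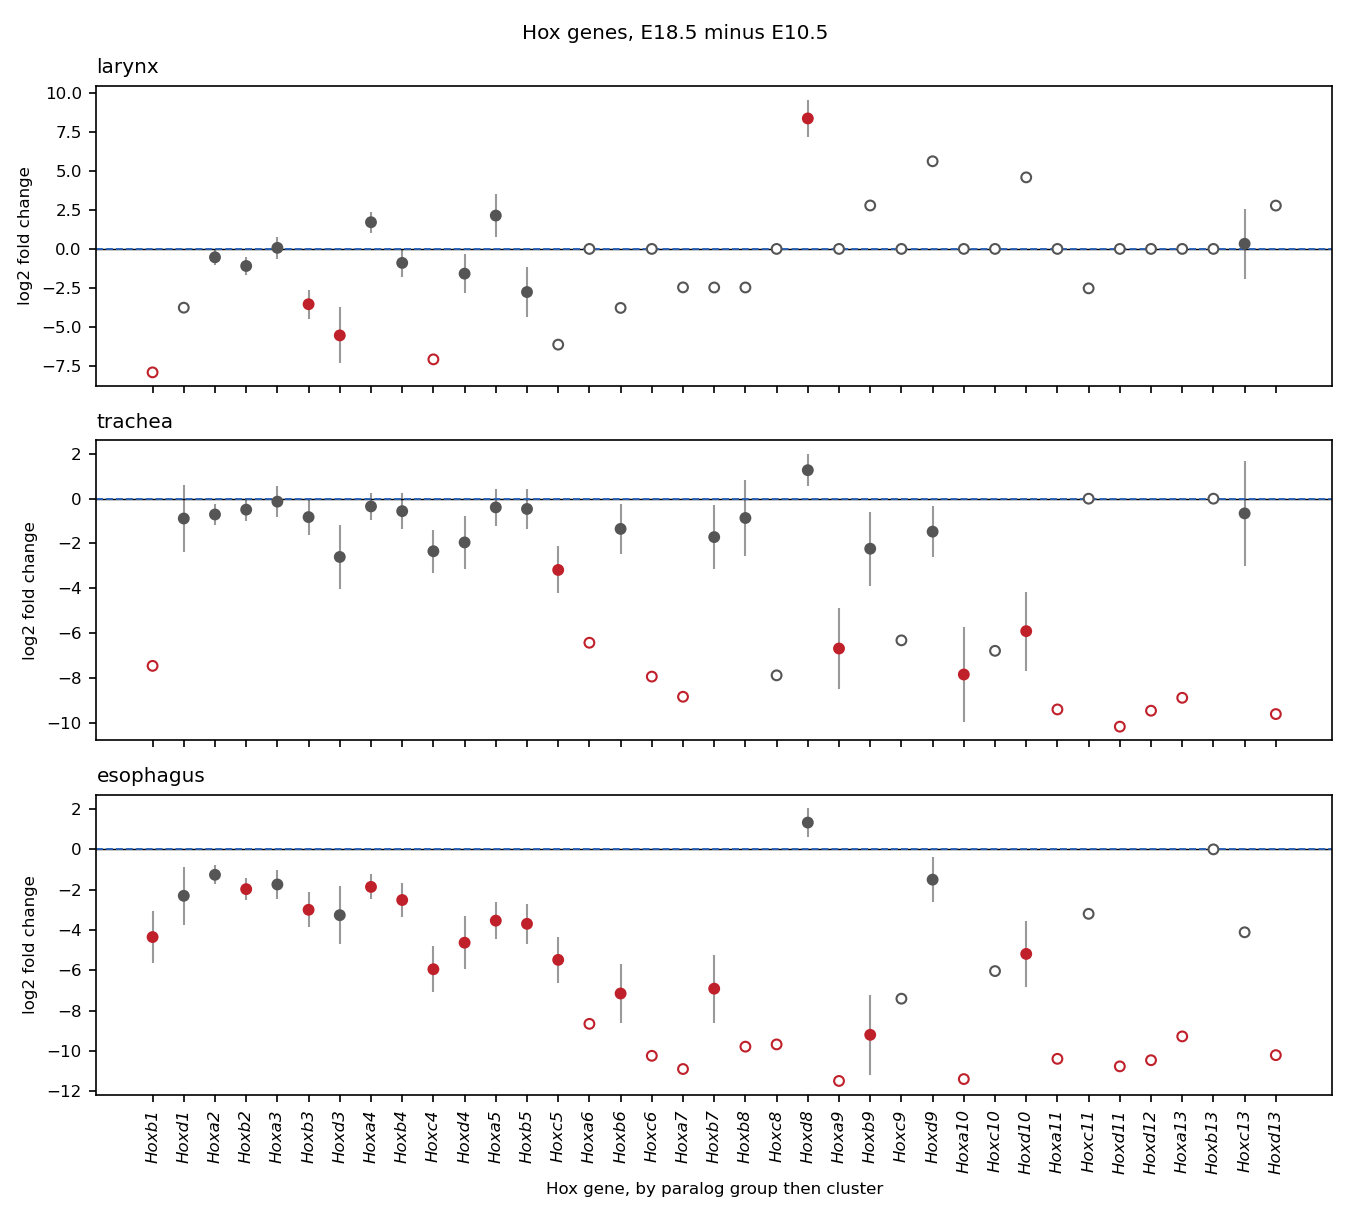
Log2 fold change from E10.5 to E18.5 (vertical axes) of 37 Hox genes in each tissue; filled circles have SE bars, open circles mark genes at 0 counts in an age, red marks an adjusted p under 0.05 and the dashed line is the median of all genes. Most points of the esophagus lie below 0 and are red, and Hoxd8 stands at 8.36 in the larynx.

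Smooth change over age was tested by fitting natural splines (3 degrees of freedom) to age rank, with an adjusted p of at most 0.01. Across the 36 embryonic libraries 24 of 37 genes varied, against 34.3% of all genes, with the smallest adjusted p at Hoxd11 (7.25e-07, edgeR) and Hoxb1 (1.4e-06). In the 12 esophagus libraries 13 of 36 varied against 5.87% of all genes, from group 1 (Hoxb1) to group 13 (Hoxd13). That count was 0 without the E10.5 libraries, 1 without E10.5 esophagus 1, 3 without E10.5 esophagus 2, 4 without E18.5 esophagus 2, 7 without E13.5 esophagus 2 and 8 without E13.5 esophagus 1 or E18.5 esophagus 1. In the 16 larynx libraries 4 of 35 varied (Hoxb1, Hoxc5, Hoxc6 and Hoxc8) against 26.1% of all genes. The count was 2 without either E10.5 larynx library, and 1 without both or with the replicate block. In the 12 trachea libraries edgeR called 0 of 35, against 11.498% of all genes. At an unadjusted p under 0.05 there were 12, against 33.4% of all genes, and DESeq2 called 6, against 31.1%. EdgeR called 1 without E10.5 trachea 2 and 2 without E15.5 trachea 1.

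Around birth and after it, genes of groups 2 to 5 and Hoxd8 were present in the larynx, while Hoxb1 and Hoxd1 were at most 3.87. Hoxb3 was at 214 and 643 in the E15.5 index libraries, 200.1 and 336 at P0 and 336 and 427 in adults, and Hoxb4 at 60.3 and 183, 55.1 and 59.8, and 200.4 and 195. Hoxc5 was at 7.72 and 4.27 at P0 and 70.0 and 41.3 in adults, and Hoxc4 at 17.6 and 23.5 and then 83.7 and 65.2. For these genes the adult libraries lay above those of P0, apart from Hoxb3, where both ages had a library at 336. Of 21 Hox genes with counts at both ages, 8 had negative log2 fold changes from P0 to adult. Hoxa2 was among those lower in adults, at 188 and 196 at P0 and 98.2 and 113 in adults, as was Hoxd8, given above. EdgeR called 0 of 37 between P0 and adult, where 4.13% of all genes were called. At an unadjusted p under 0.05 there were 3, against 14.4% of all genes, and DESeq2 called 1, against 14.9%. Hoxc5 came nearest at 3.17 ± 1.05 (SE, log2, adjusted p = 0.0936). Without either index library of the esophagus edgeR called 1. Between E15.5 and P0 both tools called 0, against 0.562% of all genes for edgeR and 8.3% for DESeq2. At an unadjusted p under 0.05 there were 2 (Hoxd1 and Hoxb2), against 12.1% of all genes.

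Some Hox genes were higher in index than in short-code libraries, at a share near that of all genes called higher. At E15.5, over the 3 tissues, 5 of 37 genes were higher in index libraries and 0 lower, against 10.3% of all genes higher and 16.1% lower, while the median of all genes was -0.39 on the log2 scale. They were Hoxa3 at 2.13 ± 0.41 (SE, adjusted p = 0.000245, edgeR), Hoxb3 at 1.82 ± 0.48, Hoxb2 at 1.52 ± 0.31, Hoxa4 at 1.04 ± 0.35 and Hoxa2 at 0.76 ± 0.27. The count was 8 without index library 2 of the esophagus. It was 3 without index library 2 of the trachea or of the larynx, short-code library 2 of the esophagus or trachea, or either short-code library of the larynx. Mitochondrial rRNA took 0.05 to 0.196% of expected counts in index libraries and 9.30 to 32.2% in short-code libraries, and its part in these values was not tested. Library kind and age cannot be told apart for P0 and adult against the younger larynx.

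Most cofactors of Hox proteins fell with age in each tissue, and none was called between tissues. Of 9 TALE cofactors, which bind DNA together with Hox proteins, 6 fell between the first and last embryonic age of each tissue, where 10.1% of all genes fell in the larynx, 9.15% in the trachea and 9.72% in the esophagus, and 0 passed in the 3 tissue contrasts. Meis2 changed by a log2 fold of -1.78 in the larynx, -2.13 in the trachea and -1.89 in the esophagus. Of 24 Polycomb and trithorax genes, which silence or maintain Hox clusters, 15 fell and 2 rose in the larynx and also in the esophagus, while in the trachea 13 fell and 2 rose. Of all genes, 12.9% rose in the larynx, 12.5% in the esophagus and 11.3% in the trachea. Ezh2, which writes the silencing mark, was at -2.13 in the larynx, -2.66 in the esophagus and -2.51 in the trachea.

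Of 22 genes of retinoic acid signalling and Cdx factors, 1 passed between larynx and esophagus. This was Aldh1a2, which makes retinoic acid, at -1.20 ± 0.19 (SE, log2, adjusted p = 0.00566, edgeR). It was at 39.0 and 68.4 in the E10.5 larynx, 419 and 327 in the trachea and 1105 and 813 in the esophagus, in the same order as Hoxa4 at that age. With age 6 of 22 fell and 4 rose in the larynx, 6 fell and 3 rose in the esophagus, and 4 fell while 5 rose in the trachea, beside the shares of all genes given above. Among the 21 neighbouring and noncoding genes of the clusters that were tested, Skap2, beside cluster A, was lower in the larynx than in its neighbours, both esophagus (-0.96 ± 0.15, adjusted p = 0.00541) and trachea (-0.86 ± 0.15, adjusted p = 0.00768). Hoxaas3, antisense to Hoxa7 over 20.3% of its exon bases, differed between larynx and esophagus, being lower in the larynx (-2.45 ± 0.36, adjusted p = 0.0026). None of the 21 passed between trachea and esophagus.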

How the data were processed

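Poly-A RNA of 40 libraries of larynx, trachea and esophagus was analysed. The authors aligned reads with Bowtie2 2.4.2, ran FastQC, and used RSEM 1.3.3 on GRCm39 to obtain expected counts, per their processing notes, which they deposited in 2 tables. How far reads were split between paralogs and overlapping genes rests on that estimate.

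For the present tests, counts were rounded, divided by median-ratio size factors and filtered, keeping genes that reached a normalized count of 1 in 2 or more libraries (36495 genes, 37 of the 38 Hox genes, Hoxc12 being left out). Contrasts were tested with edgeR 4.0.16 (quasi-likelihood, R 4.3.3, 20 groups of 2, 20 residual degrees of freedom) over all genes, with Benjamini-Hochberg adjustment and a threshold of 0.05. Natural splines on age rank with 3 degrees of freedom used 0.01. The code was tested on simulated data. DESeq2 1.42.0, TMM, other filters, a replicate block, other library sets and each library left out in turn were tried. Contrast fits without a library kept the abundance trend of the dispersion of all libraries, while spline fits without a library estimated it again. Total expected counts of 3286403 to 35831491 per library set the precision, and intervals and floors cover counting error only. Annotation and exon overlaps came from GENCODE on GRCm39.

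Members and lists were chosen with earlier results of these data known. Any Hox gene could be named. Of other lists, the rule named the genes with the highest mean count and up to 4 past the threshold with the largest difference between tissues. Ezh2, Cdx2, Mnx1 and Hoxa11os fall outside that rule and were chosen after their values were seen. Of 39 Hox genes 1 is not reported here, nor is 1 cofactor that the rule named.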

Additional observations from a re-analysis of the deposited data

Results flagged for a closer look

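Hoxd8 was the only result picked out for a closer look, because its change from E10.5 to E18.5 differed between larynx and trachea in a test of that difference itself. The change was larger in the larynx by 7.09 on the log2 scale (SE 1.46, adjusted p = 0.0194, edgeR quasi-likelihood test). Hoxd8 was at 1.18 and 0 normalized counts in the E10.5 larynx and 108 and 1.07 in the E10.5 trachea, and at 226 and 182 against 138 and 128 at E18.5. Without E10.5 trachea 1 the difference was 1.55 and not called, and from E11.5 it was -1.03. Over 49 alternatives the call was lost in 7 and the direction turned in 1. The cause was not tested.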

How the results depend on the processing

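The number of Hox genes called in the 16 comparisons was within 1.5 times the reported count with TMM. With no filter on low counts it was 18 between larynx and esophagus, 17 between larynx and trachea, 5 between trachea and esophagus and 3 among index tissues. It was 8 from E10.5 to E18.5 in the larynx and 21 in the trachea, 7 and 5 for the change of the larynx against esophagus and trachea, 4 between adult and P0, 12 between library kinds and 14 and 2 for the splines of larynx and trachea. With DESeq2 these counts were 15 between larynx and esophagus, 11 between larynx and trachea, 8 with age in the larynx, 4 for the change against the esophagus, 1 between adult and P0, 11 between library kinds, and 23 and 6 for the splines of esophagus and trachea. DESeq2 called 0.784% of all genes for the change against the esophagus, 14.9% between adult and P0 and 31.1% for the trachea spline. For the other counts of this section the shares of all genes are not given, so they do not set Hox genes apart from other genes. The cause was not tested.

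Over the 4 ages without E10.5 the counts were 0 and 0 for the larynx contrasts, and over the 3 ages from E13.5 and with tissue and age as additive terms they were 0 for all 3 tissue contrasts. Starting at E11.5 gave 12 in the larynx, 16 in the esophagus, 7 in the trachea and 0 for the change against the trachea, where Hoxd8 turned to -1.03, and Hoxd10 in the trachea turned to 0.30. Without the E10.5 libraries the splines gave 1 in the larynx and 0 in the esophagus. These were chosen after seeing the data. Without E11.5 larynx 2, E15.5 larynx 2 and E15.5 trachea 2 together the counts were 5 between larynx and trachea and 3 between library kinds. With short-code libraries alone they were 5 between larynx and trachea, and 2, 21 and 2 for the splines of larynx, esophagus and trachea. With 17 groups by tissue and age they were 7 with age in the trachea and 0 for the change against it, and with the stricter filter the larynx spline gave 2.

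Leaving out 1 library in turn gave 2 to 7 between larynx and esophagus, 1 to 9 between larynx and trachea, 1 to 3 between trachea and esophagus and 0 to 3 among index tissues. With age it gave 2 to 8 in the larynx, 10 to 28 in the esophagus and 1 to 15 in the trachea, and 0 to 1 for each difference in change. It gave 0 to 0 between P0 and E15.5, 0 to 1 between adult and P0, 3 to 8 between library kinds, and 18 to 25 across all, 2 to 5 in the larynx, 1 to 17 in the esophagus and 0 to 2 in the trachea for the splines. The change with age in the trachea ranged from -10.60 to 3.91 for Hoxa9, from -10.37 to 2.53 for Hoxa10 and from -9.82 to 3.91 for Hoxd10, the upper values without E10.5 trachea 1.

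Same-numbered short-code libraries deviated together, at r over 0.1, in 18 of 105 pairs of groups (median 0.00, highest 0.357). No pairing by number ran through all groups. Tissues could share embryos only within an age, and pairing within an age was not tested separately. With the replicate block the count was 2 between larynx and trachea, 10 with age in the trachea, 19 for the esophagus spline and 1 for the larynx spline. Depth limits E11.5 larynx 1, the shallowest library, which had 3286403 expected counts and 14 Hox genes with a count.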
